A study of Mus musculus with 21 samples.

Results

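The regions described here are 696 places in the mouse genome where chromatin of the embryonic basal ganglia gave a ChIP peak for CHD4, HDAC1, HDAC2, MBD3 and RBBP4 but none for RBBP7. They were chosen from 6 deposited peak lists, 1 per NuRD subunit, whose peaks on chromosomes 1 to 19 and X were joined wherever they overlapped by at least 1 bp. Joining gave 38820 merged regions, of which 696 held a peak of each of the 5 lists and none of the RBBP7 list. They are called 5-list regions without RBBP7 below and were compared with 1527 regions that held a peak of all 6 lists. They were also compared with 1692 regions that held 5 lists including RBBP7. Of those, by sample label, 1179 lacked the HDAC2 list, 372 the HDAC1 list, 78 the CHD4 list and 63 the MBD3 list.

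The study, in its title, asked how DLX1 and NuRD act together on enhancers and transcription. ChIP was done on basal ganglia of CD1 mouse embryos at E13.5 (embryonic day), with 1 library per subunit and 3 input libraries. ATAC-seq, which reads open chromatin, used E12.5 basal ganglia of Dlx1/2 knockout (KO) and wild-type (WT) CD1 embryos, with 3 embryos per genotype in each of the fractions labelled FTneg and FTpos. Each of the 4 deposited accessibility lists gives regions higher in one genotype, over its embryos together, within one fraction. ChIP was therefore done in tissue labelled with no genotype, and no list shows where NuRD lies in KO embryos. The labels place RBBP4 and RBBP7 with the same input library.

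Lists are named by the label of their sample. The CHD4-labelled list carries the name HDAC1, the HDAC1-labelled list carries HDAC2 and the HDAC2-labelled list carries CHD4, and which is right was not settled. Since all of these lists are required, the 696 regions are the same under either naming. The classes that lack the CHD4-labelled, HDAC1-labelled or HDAC2-labelled list, and the values of each list, do depend on the naming.

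NuRD joins a nucleosome-remodelling ATPase (CHD4) to histone deacetylases (HDAC1 and HDAC2), with MBD3 holding parts of the complex together. RBBP4 and RBBP7 are closely related WD40-repeat proteins that bind histones, and both are also found in other chromatin complexes. DLX1 and DLX2 are homeodomain transcription factors needed for the GABAergic lineage of the ventral forebrain.

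Gene starts held the largest share of the 696 regions (335, 48.1%), so promoter sequence at 4 of them is shown first. They are the regions at gene starts with the best worst rank whose promoter is in the RefSeq table used (GRCm38.p6, the assembly of mm10). A region's worst rank is the poorest of its ranks by fold enrichment within the 5 lists. Each line gives the 250 bases before the annotated start, 5′ to 3′ on the gene's strand. Capitals mark matches, on either strand, to 8 motifs. These were the CCAAT box (letters CCAAT), the TATA box (letters TATAAA), the SP/KLF motif (letters GGGCGG) and the NRF1 motif (letters GCGCA, any base, then GCGC). The others were the ETS motif (letters CCGGAAG), the CRE (letters TGACGTCA), the E-box (letters CAGCTG) and the homeodomain motif (letters TAATTA).
Atp6v1e1, chr6:120822699-120822948, minus strand: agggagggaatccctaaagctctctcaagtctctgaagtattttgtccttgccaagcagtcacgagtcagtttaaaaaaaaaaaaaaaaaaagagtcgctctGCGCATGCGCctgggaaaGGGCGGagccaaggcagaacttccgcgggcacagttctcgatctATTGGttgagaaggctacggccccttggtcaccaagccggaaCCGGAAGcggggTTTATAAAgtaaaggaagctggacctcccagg
Slc7a6, chr8:106168671-106168920, plus strand: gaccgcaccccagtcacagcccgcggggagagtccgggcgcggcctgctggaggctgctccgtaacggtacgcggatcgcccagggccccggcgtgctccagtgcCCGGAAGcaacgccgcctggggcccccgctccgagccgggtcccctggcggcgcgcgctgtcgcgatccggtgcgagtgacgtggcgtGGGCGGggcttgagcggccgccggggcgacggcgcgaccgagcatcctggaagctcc
Tspan14, chr14:40966897-40967146, minus strand: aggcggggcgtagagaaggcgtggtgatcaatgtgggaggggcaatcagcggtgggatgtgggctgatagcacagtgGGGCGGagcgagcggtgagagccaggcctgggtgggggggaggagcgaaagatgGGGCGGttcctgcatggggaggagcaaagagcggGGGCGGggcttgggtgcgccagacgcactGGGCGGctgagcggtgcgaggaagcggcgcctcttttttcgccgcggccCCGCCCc
Borcs6, chr11:69059525-69059774, plus strand: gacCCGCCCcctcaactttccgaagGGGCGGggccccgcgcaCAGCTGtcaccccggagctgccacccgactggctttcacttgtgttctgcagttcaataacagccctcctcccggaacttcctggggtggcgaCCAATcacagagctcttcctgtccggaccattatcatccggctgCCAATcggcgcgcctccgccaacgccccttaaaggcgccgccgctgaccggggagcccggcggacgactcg

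All 4 windows lay wholly within their region. The median of the peak summits was 79 bp into the gene from this start at Atp6v1e1 (a subunit of the vacuolar proton pump) and 26 bp into it at Borcs6 (a subunit of the lysosome-positioning BORC complex). It was 170 bp into Slc7a6, an amino acid transporter, and -353 bp, before the start, at Tspan14, a tetraspanin. SP/KLF letters occurred 5 times in the Tspan14 window, 2 times at Borcs6 and 1 time each at Atp6v1e1 and Slc7a6. Only the Atp6v1e1 window among these 4 held a TATA box, matched on both strands at overlapping bases, or the NRF1 motif. The ratio of observed to expected CpG was 0.801 at Atp6v1e1, 0.962 at Slc7a6, 0.894 at Tspan14 and 0.850 at Borcs6, computed over the whole 300-base table entry (50 bases past the start).

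The 5 lists that define the regions differ in length, and so do their shares within them. The 696 regions took up 13.4% of the 5517 peaks in the HDAC2-labelled list, 8.19% of 11288 in the HDAC1-labelled list, 6.92% of 11721 for MBD3, 4.61% of 18274 in the CHD4-labelled list and 2.83% of 29762 for RBBP4. The weakest peak of a region was most often the HDAC2-labelled one, in 408 of 696 regions. Next came the HDAC1-labelled peak in 177 regions, MBD3 in 56, the CHD4-labelled peak in 42 and RBBP4 in 13.

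Fold enrichment over input at the summit, the authors' value for each peak, is part of what chose the regions and is given without a test. The highest RBBP4 peak of a region had a median of 5.81-fold (2.64 to 20.2) in the 696 regions, against 7.68-fold (3.01 to 46.6) in the 6-list regions. For MBD3 the medians were 5.30-fold and 5.95-fold. For the CHD4-labelled list they were 6.50-fold and 6.78-fold, for the HDAC1-labelled list 5.53-fold and 5.83-fold, and for the HDAC2-labelled list 4.13-fold and 4.28-fold. The gap between the region classes was thus widest for RBBP4.

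**Figure D1:**
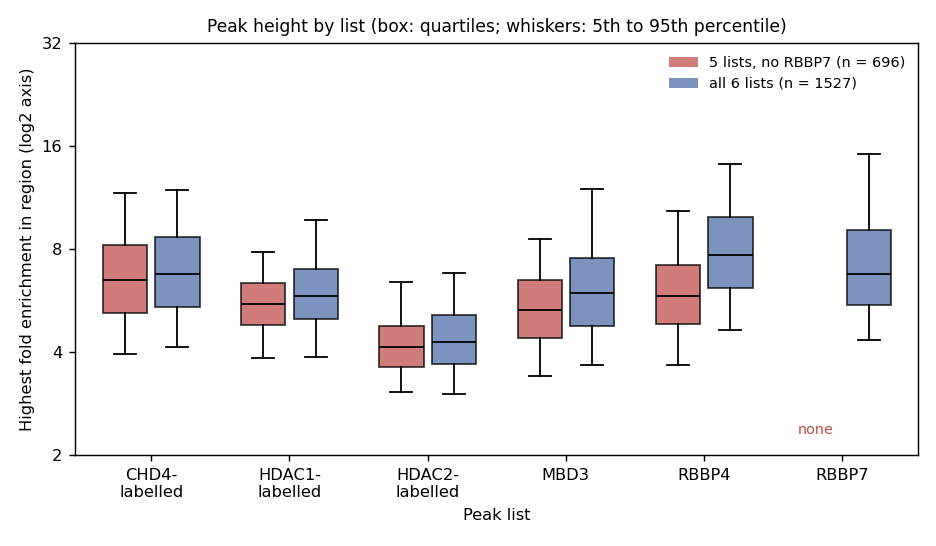
Highest fold enrichment over input per region (vertical axis, log2 scale) in each peak list, for the 696 five-list regions without RBBP7 (red, left) and the 1527 six-list regions (blue, right). Lines in the boxes are medians, and the RBBP4 medians, 5.81 and 7.68, lie farthest apart.

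Peak heights in the 5 lists moved little with one another across the 696 regions. Spearman's rho was 0.29 for the CHD4-labelled and HDAC1-labelled lists, 0.20 for MBD3 and RBBP4, and between -0.02 and 0.17 for the other 8 pairs. These points share inputs and genomic position and are given as a description. Different regions therefore led each list. The tallest CHD4-labelled peak (25.8-fold) lay at an end of Mat2a, which makes S-adenosylmethionine, where the RBBP4 peak was 5.58-fold. The tallest MBD3 peak (19.1-fold) lay at an end of Qk, an RNA-binding protein, and the tallest HDAC2-labelled peak (12.6-fold) lay within Bbc3, which encodes the pro-apoptotic protein PUMA. The tallest HDAC1-labelled peak (13.2-fold) lay at Rnaseh2b. The tallest RBBP4 peak (20.2-fold) lay between genes, 238042 bp from Tecrl.

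The 696 regions had a median width of 1452.5 bp (515 to 7304 bp), against 1540 bp in the 6-list regions and 597 bp over all merged regions. In 367 of them each list gave exactly 1 peak, and there the 5 summits spanned a median of 311 bp (quartiles 175.5 and 498 bp). Chromosome X held 3 of the 696 regions (0.431%), against 4 of 1527 6-list regions and 1.85% of all merged regions.

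The lists admitted peaks down to different values. The lowest fold in the RBBP7 list was 3.06, against 2.199 in the RBBP4 list, while the lowest −log10 q was 2.69 against 2.98. The part of these limits in the choice of regions was not tested. Just inside the rule, the nearest RBBP7 peak was 44 bp away, 18 of the 696 regions had one within 1 kb and 115 had one within 10 kb. The median distance to an RBBP7 peak was 50021.5 bp. The nearest 6-list region was 52 bp away, 8 of the 696 regions had one within 1 kb, and the median distance was 420744 bp. Of the 5 required peaks, the one with the lowest −log10 q had a median of 5.82 and a minimum of 2.44 over the 696 regions, and 221 regions (31.8%) had one below 5. Just outside the rule, the RBBP7 peak of the 6-list regions had a minimum −log10 q of 2.93 and a median of 11.4, and 70 regions (4.58%) were below 5. That share is for a single list, so it cannot be set against the share for the lowest of 5 peaks.

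The 696 regions lay at gene ends more often than either class they were compared with. A region counts as at a gene end when the median of its summits is within 1 kb of either end of a protein-coding gene. This held for 426 of the 696 regions (61.2%, Wilson 95% interval 57.5 to 64.8%), against 539 of 1527 6-list regions (35.3%, 32.9 to 37.7%) and 746 of 1692 other 5-list regions (44.1%, 41.7 to 46.5%). Over all merged regions it was 30.7%. The odds were 2.89 times those of 6-list regions (adjusted p = 4.25e-29) and 2.00 times those of other 5-list regions (adjusted p = 1.55e-13; two-sided Fisher's exact tests with Benjamini-Hochberg adjustment over 10 tests). These tests compare lists of regions, not embryos.

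The other position classes were smaller in the 696 regions. Within genes but away from their ends lay 165 regions (23.7%), against 33.7% of 6-list and 31.3% of other 5-list regions (odds ratios 0.612 and 0.683, adjusted p = 3.66e-06 and 3.31e-04, Fisher's exact test). More than 100 kb from any gene lay 48 regions (6.90%), against 16.4% of 6-list and 10.5% of other 5-list regions (odds ratios 0.378 and 0.634, adjusted p = 6.56e-10 and 0.00857, Fisher's exact test). A further 57 regions (8.19%) lay between genes within 100 kb, against 14.7% and 14.2%.

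**Figure D2:**
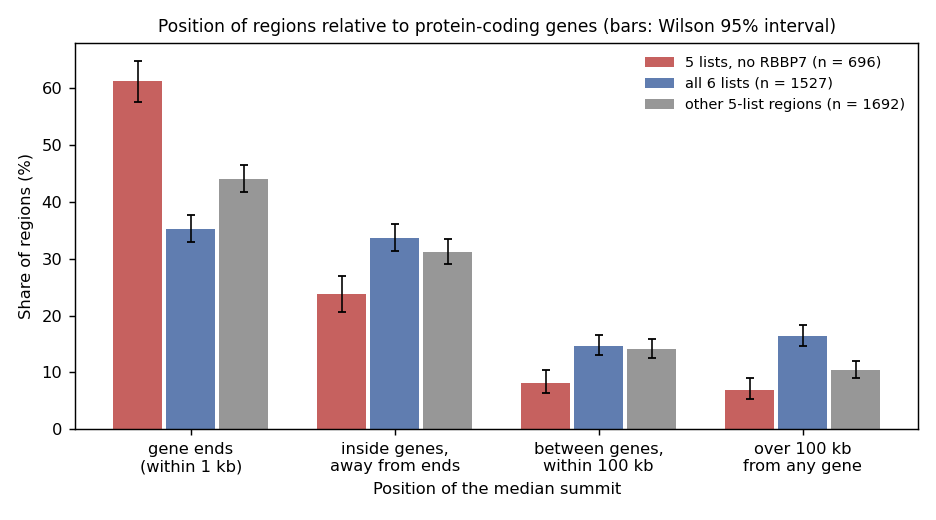
Share of regions (%) by position of the median summit relative to protein-coding genes, for the 5-list regions without RBBP7 (red), 6-list regions (blue) and other 5-list regions (grey), with Wilson 95% intervals. The red bar is the tallest at gene ends (61.2%) and the shortest in the other position classes.

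The other 5-list regions were not alike in position. Gene ends held 53.6% (50.8 to 56.4%) of the 1179 regions without an HDAC2-labelled peak and 33.3% of those without an MBD3 peak. They held 32.1% of those without a CHD4-labelled peak and 18.3% (14.7 to 22.5%) of those without an HDAC1-labelled peak. Among the 5-list classes the regions without RBBP7 thus stood nearest to those without an HDAC2-labelled peak, and that difference was not tested. Gene-end shares were also compared within terciles of RBBP4 fold. The odds ratios in the low and middle terciles were 2.24 and 2.72 against 6-list regions and 2.63 and 2.21 against other 5-list regions. In the highest tercile by RBBP4 fold (from 8.39-fold), 30 of 96 regions without RBBP7 (31.2%) lay at gene ends, against 162 of 645 6-list regions (25.1%), an odds ratio of 1.36 that did not pass (Fisher's exact p = 0.212). In the highest tercile set with the other 5-list regions, the shares were 41.1% and 41.2% (odds ratio 0.995, Fisher's exact p = 1). Whether the odds ratios differ between terciles was not tested.

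At gene ends most regions lay at starts. Of the 426 regions at gene ends, 335 were within 1 kb of a start, 4 were at a far end only and 87 were at an end whose strand the reference tables did not give. The start used for these distances is the 5′ end of the whole gene, which can differ from the annotated start of a promoter shown above. By it the Slc7a6 summit lay at 872 bp rather than 170 bp, and the Tspan14 summit at -176 bp rather than -353 bp. In those 335 regions the median summit lay 173 bp into the gene (quartiles 7 and 357.5 bp), and 252 (75.2%) lay past the start. In the 402 6-list regions near a start the median was 105 bp (quartiles -104 and 317.5 bp), with 65.2% past it. Starts on both strands were present at 25 of the 696 regions (3.59%), against 2.03% of 6-list and 3.61% of other 5-list regions.

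**Figure D3:**
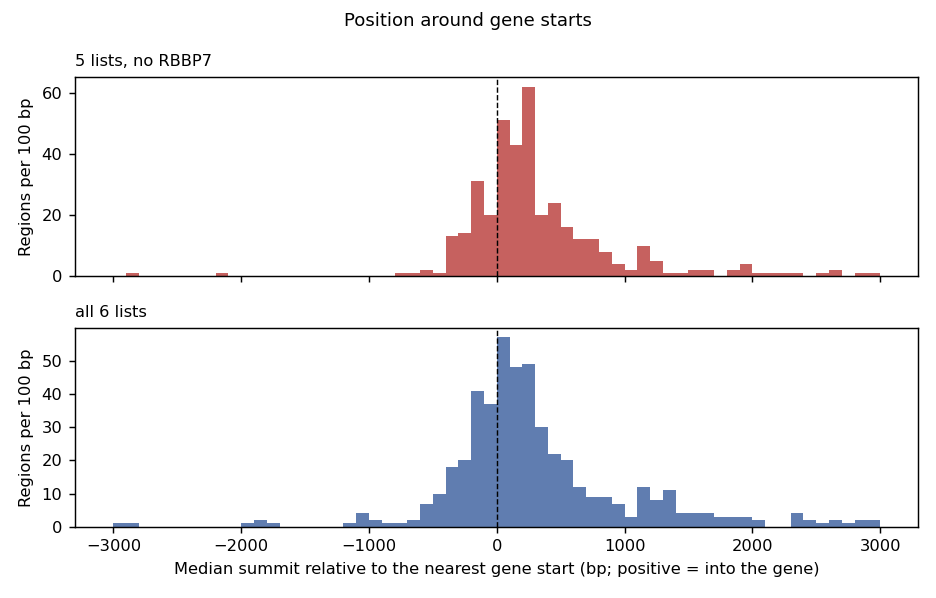
Number of regions per 100 bp (vertical axis) by signed distance of the median summit from the nearest gene start (horizontal axis, bp, positive into the gene), for 5-list regions without RBBP7 (top) and 6-list regions (bottom). Both peak just past the start; among regions within 1 kb the medians are 173 bp and 105 bp.

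Promoters at the regions were rich in CpG, as were those of the compared classes. A ratio of observed to expected CpG of at least 0.6 was found in 347 of 408 promoters at the 696 regions (85.0%, 81.3 to 88.2%), in 472 of 540 at 6-list regions (87.4%, 84.3 to 89.9%) and in 670 of 780 at other 5-list regions (85.9%, 83.3 to 88.2%). Over all 16783 promoters of the table it was 50.0%. The difference from 6-list regions did not pass (odds ratio 0.820, adjusted p = 0.327, Fisher's exact test), nor did that from other 5-list regions (odds ratio 0.934, adjusted p = 0.728, Fisher's exact test). SP/KLF letters were in 77.0% of the 408 promoters, against 77.4% at 6-list regions and 47.9% of all promoters. The TATA box was in 4.41%, against 5.37% and 13.2%.

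The other motifs are given as a description, with no test. CCAAT was in 33.1% of promoters at the 696 regions, 38.7% at 6-list regions, 40.6% at other 5-list regions and 39.5% of all. The ETS letters were in 16.9%, 12.4%, 13.7% and 12.3% in the same order, and the CRE in 3.92%, 1.67%, 2.44% and 2.41%. NRF1 letters were in 10.0%, 10.7%, 7.56% and 6.92%. The E-box was in 13.2%, 15.2%, 14.1% and 15.3%, and the homeodomain letters were in 1.23%, 0.741%, 2.05% and 4.58%.

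At gene ends the regions were ranked by their poorest rank among the 5 lists. Rnaseh2b, a subunit of the RNase H2 that removes ribonucleotides from DNA, came first, with a region at chr14:62331544-62332898. Its folds were 13.1 (CHD4-labelled), 13.2 (HDAC1-labelled), 6.52 (HDAC2-labelled), 7.06 (MBD3) and 7.80 (RBBP4). Slc7a6 had 12.1, 7.001, 4.72, 10.2 and 7.72-fold in the same order of lists. Atp6v1e1 had 8.58, 8.45, 4.78, 7.56 and 9.67-fold, the highest RBBP4 value of these 10. The others were Tspan14, Borcs6, Rap1gds1 (a regulator of small GTPases), Pim3 (a serine/threonine kinase), St3gal3 (a sialyltransferase), Memo1, and a region between Alg11 (N-glycan synthesis) and Atp7b (a copper transporter). Their RBBP4 folds ran up to 8.79 at St3gal3 and down to 6.52 at Memo1.

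Away from gene ends the same ranking was led by Tle1, a Groucho-family corepressor. Its region at chr4:72182058-72183064, within the gene, had 11.5 (CHD4-labelled), 8.79 (HDAC1-labelled), 5.80 (HDAC2-labelled), 8.79 (MBD3) and 10.1-fold (RBBP4). RBBP4 was the tallest of the 5 peaks in 7 of these 10 regions, with its highest values in the region 238042 bp from Tecrl (20.2-fold), in Pola1 (DNA polymerase alpha, 15.3-fold) and 704095 bp from Brinp1 (14.8-fold). It was also the tallest, from 8.11-fold at Fzd8 to 11.2-fold in Pard3b, in the Rpp40, Tuba3b, Pard3b and Fzd8 regions. These 10 also held regions in Rpp40 (a subunit of RNase P), Mvb12b (of the ESCRT-I complex), Cep120 (a centriole protein) and Pard3b (a polarity protein), and regions 56406 bp from Tuba3b (an alpha-tubulin) and 1780 bp from Fzd8 (a Wnt receptor). Of these 10, the Tecrl, Tuba3b, Pola1 and Pard3b regions overlapped a region of changed accessibility, described below.

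RBBP4 peaks were higher away from gene ends. The median RBBP4 fold was 5.59 in the 426 regions at gene ends, 6.09 in the 165 within genes and 6.48 in the 105 between genes. The CHD4-labelled list ran the other way, with medians of 6.86, 6.35 and 5.81 in the same order. Regions between genes were also narrower (median 1028 bp) than those at gene ends (1568.5 bp).

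Regions were spread 1 to a gene for the most part. Of the genes nearest to a region, 643 had 1, 25 had 2 and only Npas3, a neuronal bHLH-PAS transcription factor, had 3. The Npas3 regions at chr12:53250340-53252548 and chr12:53252658-53254628 lay next to each other, 3970 and 5604 bp from the nearest gene end, with RBBP4 folds of 4.41 and 5.80. The other, at chr12:53629303-53630774, lay deep in the gene with 5.53-fold RBBP4 and a 6.06-fold HDAC2-labelled peak.

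Of 20953 protein-coding genes, 465 (2.22%) had one of the 696 regions at an end. Of 314 genes in 16 lists, none did, which allows a share of up to 0.955% (3 counts, counting error only). These lists were chosen with earlier results of these data known, so the bound is given as a description, without a test. The lists covered NuRD subunits, other complexes with RBBP4 or RBBP7, the Notch pathway, GABAergic, progenitor, cortical glutamatergic, glial, vascular and microglial genes. They also covered the cell cycle, housekeeping, immediate early, ribosomal protein, respiratory chain, splicing and proteasome genes. The same 314 genes were not empty of peaks: 251 (79.9%) had a merged region at an end, against 54.1% of all genes. A 6-list region lay at 24 of them (7.64%, against 2.81% of all genes) and another 5-list region at 30, against 836 of all 20953 genes. When any base of a region within 1 kb was counted, 1 gene of the GABAergic list, Dlx1, had one of the 696 regions at an end.

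Accessibility was not used to choose the regions. A KO-higher FTneg region overlapped 8 of the 696 regions (1.15%, 0.584 to 2.25%), against 102 6-list regions (6.68%, 5.53 to 8.04%) and 54 other 5-list regions (3.19%, 2.45 to 4.14%). Over all merged regions the share was 1.33%, within the interval of the 696 regions, so their own share was near the background and the compared classes lay above it. The odds ratio was 0.162 against 6-list regions (adjusted p = 1.67e-09) and 0.353 against other 5-list regions (adjusted p = 0.00594, Fisher's exact tests). Within the other 5-list regions the share was 8.33% without an HDAC1-labelled peak (31 of 372) and 3.85% without a CHD4-labelled peak. It was 1.61% without an HDAC2-labelled peak (19 of 1179, 1.03 to 2.50%) and 1.59% without an MBD3 peak. These last shares, without HDAC2-labelled and without MBD3 peaks, lay near that of the 696 regions, and those differences were not tested. The call against other 5-list regions held with peaks of −log10 q of at least 5 (odds ratio 0.399, Fisher's exact p = 0.00979). It also held with the accessibility summit within the region (0.320, Fisher's exact p = 0.00211). At −log10 q of at least 10, at an area of at least 1000 and within each RBBP4 tercile it was lost (Fisher's exact p between 0.0556 and 0.484). Over the terciles together it passed (Mantel-Haenszel odds ratio 0.394). Away from gene ends the counts were 8 of 270 regions (2.96%), 100 of 988 6-list regions (10.1%) and 53 of 946 other 5-list regions (5.60%), with 1.85% over all merged regions. There the odds ratio against 6-list regions was 0.271 (Fisher's exact p = 6.97e-05), while that against other 5-list regions, 0.514, did not pass (p = 0.0835).

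Overlap with WT-higher regions ran the other way between the classes. In the FTpos fraction 11 of the 696 regions (1.58%, 0.885 to 2.81%) overlapped a WT-higher region, against 3 6-list regions (0.196%, 0.0668 to 0.576%) and 2 other 5-list regions (0.118%, 0.0324 to 0.430%). Over all merged regions the share was 0.0696%. The odds ratios were 8.16 (adjusted p = 7.19e-04) and 13.6 (adjusted p = 2.06e-04, Fisher's exact tests adjusted over 4 tests chosen after the counts had been seen). In FTneg the counts were 5 regions (0.718%), 1 and 3, with 0.0927% over all merged regions. The odds ratio was 11.04 against 6-list regions (adjusted p = 0.0176), and 4.07 against other 5-list regions did not pass (adjusted p = 0.0513, Fisher's exact tests). None of the 3 classes overlapped a KO-higher FTpos region, and 1 merged region in all did (0.00258%).

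Seen from the accessibility lists, 12 of the 33 WT-higher FTpos regions (36.4%) overlapped one of the 696 regions, and 3 (9.09%) a 6-list region. Of the 724 KO-higher FTneg regions, 9 (1.24%) overlapped one of the 696 regions and 109 (15.1%) a 6-list region. Other 5-list regions were overlapped by 4 of the WT-higher FTpos regions (12.1%) and by 54 of the KO-higher FTneg regions (7.46%). Of the 53 WT-higher FTneg regions, 5 (9.43%) overlapped one of the 696 regions, 1 (1.89%) a 6-list region and 6 (11.3%) another 5-list region. Any merged region was overlapped by 29 of the 33 WT-higher FTpos regions (87.9%), 38 of the 53 WT-higher FTneg regions (71.7%) and 518 of the KO-higher FTneg regions (71.5%). By tercile of RBBP4 fold, from low to high, a WT-higher FTpos region overlapped 2 of 380, 0 of 220 and 9 of 96 regions without RBBP7. The same counts in 6-list regions were 0 of 361, 2 of 521 and 1 of 645.

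**Figure D4:**
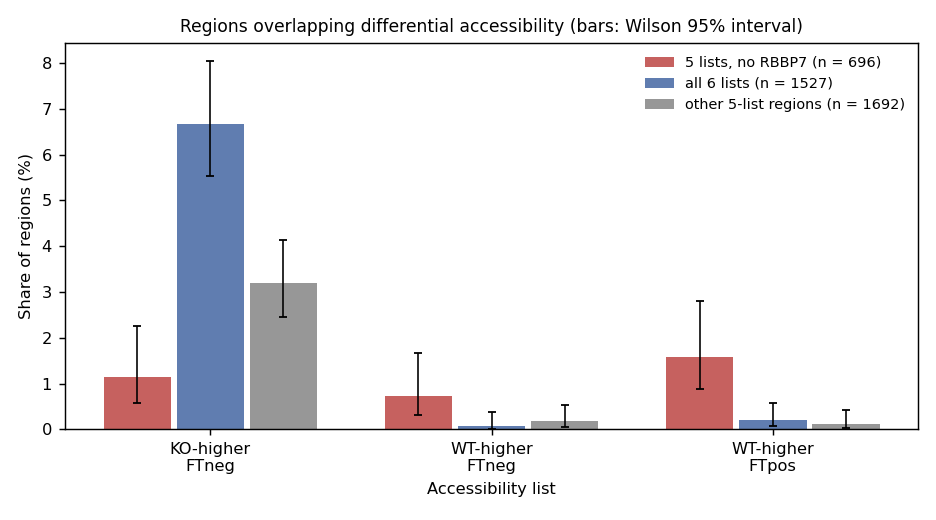
Share of regions (%) that overlap a region of each accessibility list, for 5-list regions without RBBP7 (red), 6-list regions (blue) and other 5-list regions (grey), with Wilson 95% intervals. For KO-higher FTneg the red bar (1.15%) is the shortest, and for WT-higher FTpos (1.58%) it is the tallest.

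In all, 21 distinct regions of the 696 overlapped an accessibility region, none of them at a gene end and 11 of them within genes. A WT-higher region overlapped 13 of them, and 3 regions were in both WT-higher lists. The median RBBP4 fold was 11.1 (4.98 to 20.2) in these 13 regions and 7.33 (4.42 to 11.2) in the 8 with a KO-higher region. It was 6.18 (2.64 to 17.5) in the 249 others away from gene ends. MBD3 medians were closer together, at 6.12, 6.26 and 5.46-fold.

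The region at chr2:71533836-71536894 runs from the end of Dlx1 into the interval between Dlx1 and Dlx2. Its folds were 11.6 (CHD4-labelled), 7.34 (HDAC1-labelled), 3.94 (HDAC2-labelled), 7.09 (MBD3) and 13.7 (RBBP4). In the authors' deposited table it overlapped a WT-higher FTneg region of area 9135, the second of 53 in rank, and WT-higher FTpos regions of area 4533 and 2239. Area is the authors' sum of −log10 p over a region. This is the locus targeted in the knockout, where lower accessibility and missing sequence cannot be told apart. A second region, at chr2:71515721-71518766, lay within Metap1d, 9347 bp from Dlx1, with 17.4-fold RBBP4 and 11.4-fold HDAC1-labelled peaks. The authors' deposited table gave it a WT-higher FTpos area of 725.

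Between Dlx6 and Dlx5, the paralogous pair of homeodomain genes, the region at chr6:6869004-6871258 lay 1034 bp from Dlx6 and 6543 bp from Dlx5. It had 10.1-fold RBBP4, 8.58-fold CHD4-labelled, 7.32-fold HDAC1-labelled, 5.43-fold MBD3 and 4.47-fold HDAC2-labelled peaks. The authors' deposited table gave a WT-higher area of 933 in FTneg and 886 in FTpos. RBBP7 peaks were present in both loci, but at other places, such as 5.17-fold and 6.16-fold at Dlx6, and 7.09-fold and 5.45-fold at Dlx1. At Dlx1 the CHD4-labelled peak at chr2:71527793-71533716 overlapped peaks of every other list, RBBP7 included. This 6-list region ended just before the region at chr2:71533836-71536894.

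**Figure D5:**
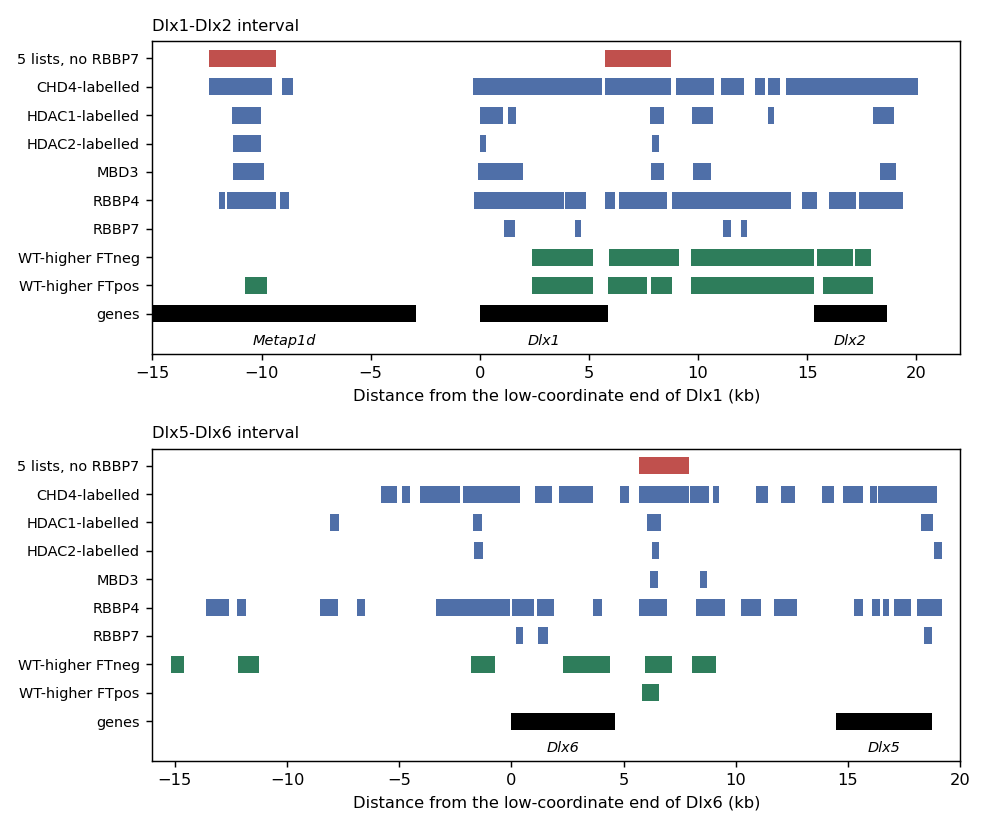
Peaks of each ChIP list (blue), WT-higher accessibility regions (green), genes (black) and the 5-list regions without RBBP7 (red) along the Dlx1-Dlx2 locus (top) and the Dlx5-Dlx6 locus (bottom). The horizontal axis is the distance in kb from the low-coordinate end of Dlx1 or Dlx6; the red blocks overlap green blocks and hold a peak of every ChIP list but RBBP7.

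Without regions within 100 kb of Dlx1, Dlx2, Dlx5 and Dlx6, 8 of 693 regions (1.15%) still overlapped a WT-higher FTpos region, against 2 of 1526 6-list regions and 1 of 1689 other 5-list regions. The odds ratios there were 8.90 (Fisher's exact p = 0.00208) and 19.7 (Fisher's exact p = 3.34e-04). In FTneg the counts were 3, 0 and 1.

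The region in Pola1 at chrX:93408848-93410330 had 15.3-fold RBBP4 and 12.01-fold MBD3 peaks. In the authors' deposited table its WT-higher FTpos area was 1256, rank 8 of 33. The region at chr12:26930003-26930954, 403314 bp from Sox11, a neuronal transcription factor, was in both WT-higher lists, with areas of 980 in FTneg and 840 in FTpos in the authors' deposited table. Its RBBP4 fold was 11.1.

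The other WT-higher FTpos overlaps, with areas between 517 and 998 in the authors' deposited table, were in Plxna2 (a semaphorin receptor), Abracl and Asb4, and outside genes. Those outside lay 473271 bp from Itga1 (an integrin subunit), 48523 bp from Zfp608 and 238042 bp from Tecrl. The other WT-higher FTneg overlaps were 436965 bp from Castor2 and 56406 bp from Tuba3b. RBBP4 folds in these 8 regions ran from 4.98 (nearest gene Castor2) to 20.2 (nearest gene Tecrl), with 5.52 in Asb4 and 6.005 at the region nearest to Itga1.

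The 8 regions with a KO-higher FTneg overlap lay in Sox5 (an SRY-box factor), Chd7 (a chromatin remodeller), Tcf12 (a bHLH factor), Mfng (a glycosyltransferase that modifies Notch), Pard3b and Igdcc3, and outside genes 28929 bp from Parp11 and 440815 bp from Dusp26. The largest area in the authors' deposited table was 1586, rank 38 of 724, at the region nearest to Dusp26, and the others lay between 530 and 848. RBBP4 folds were 11.2 in Pard3b, 10.6 at the region nearest to Dusp26, 8.99 in Sox5 and 8.54 in Mfng. They were 6.12 in Tcf12, 5.79 in Igdcc3, 5.59 at the region nearest to Parp11 and 4.42 in Chd7, where the HDAC2-labelled peak reached 7.55-fold.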

How the data were processed

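The submitters' processing notes name MACS2 2.2.7.1, Genrich, SAMtools 1.10, BWA and deepTools, and build mm10. Their settings are not given in the sources used here. The deposited ChIP lists hold peaks against input, with the authors' fold enrichment (a ratio) and −log10 q. Each accessibility score is the area deposited by the authors, at least 500. Read depths were not used and are unknown.

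Peaks on chromosomes 1 to 19 and X were merged at 1 bp of overlap (Python 3.11.15, pandas 2.3.3, scipy 1.17.1). A region's position is the median of its summits. Genes, strands and promoters came from RefSeq GRCm38.p6; 16783 of 20953 protein-coding genes with a curated transcript had a strand and promoter. Shares carry Wilson 95% intervals, which cover counting error over regions only. Differences in share were tested with Fisher's exact test, two-sided, on the counts (10 planned, 4 added after the counts were seen). For the odds ratio only, 0.5 was added to each cell where a cell was 0. The code was tested on simulated data. No list has a replicate, so no test measures spread between embryos.

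The regions named are the 10 at and the 10 away from gene ends with the best worst rank over the 5 lists, all that overlap an accessibility region (all 21, where a limit of 20 had been set), and those of genes nearest to 3. Promoters shown are the 4 best ranked at gene starts. Single peaks at Mat2a, Qk and Bbc3 were named after their values were seen. The members, lists and rule were chosen with earlier results of these data known. Alternatives are in the closing section.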

Additional observations from a re-analysis of the deposited data

Results flagged for a closer look

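The direction of accessibility change at the 696 regions differed between fractions. In FTneg 8 regions overlapped a KO-higher and 5 a WT-higher region, and in FTpos 0 overlapped a KO-higher and 11 a WT-higher region. The odds ratio between the fractions was 35.5, with 0.5 added to each cell (two-sided Fisher's exact p = 0.00197). Over all merged regions the counts were 517 KO-higher and 36 WT-higher overlaps in FTneg, and 1 and 27 in FTpos (odds ratio 388). The contrast is thus shared by the background and is not particular to the 696 regions. The count of 0 rests on a list of which 1 region overlapped any merged region. Of these regions, 3 were in both WT-higher lists, so the test's counts are not independent. The lists differ in length in the same way. For FTneg the KO-higher list held 724 regions and the WT-higher list 53, and for FTpos they held 12 and 33.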

How the results depend on the processing

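The number of regions was 104 with peaks of −log10 q of at least 10, 409 where the summits had to lie within 250 bp, 234 with lists of equal length and 2237 with the HDAC2-labelled list not required. Other settings gave between 525 and 981. The share at gene ends was 67.2% by any base of the region, 50.9% within 500 bp and 73.7% within 5000 bp. Its odds ratio in the highest tercile of RBBP4 fold was 1.36 against 6-list regions and turned to 0.995 against other 5-list regions; over the terciles together (Mantel-Haenszel) both passed. The share with a KO-higher FTneg region was 3.85% at −log10 q of at least 10, 0.144% at an area of at least 1000 and 2.96% away from gene ends. Its odds ratio against 6-list regions was 0.416 in the highest tercile and did not pass. Against other 5-list regions it was 0.479 at −log10 q of at least 10, 0.201 at an area of at least 1000 and 0.514 away from gene ends. In the terciles it was 0.247, 0.310 and 0.612, and none of these odds ratios passed. It was 0.399 at −log10 q of at least 5 and 0.394 over the terciles together (Mantel-Haenszel), and both passed without adjustment. For WT-higher FTneg, the odds ratio against other 5-list regions was 5.93 away from gene ends and 6.29 by Mantel-Haenszel, and both passed without adjustment. Without regions within 100 kb of Dlx1, Dlx2, Dlx5 and Dlx6 it was 7.34 and did not pass (Fisher's exact p = 0.0768). The causes were not tested, although terciles, strict thresholds and position subsets leave fewer regions.

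No paired analysis was possible because each accessibility list combines its embryos and each ChIP target has 1 list. RBBP7 enrichment below the caller's limit is not listed, and that limit is unknown without depths. Neither exons nor sequence of the regions away from gene starts were used here.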

Other observations

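Gene groups chosen after their values had been seen, and so given without a test, held regions where the 16 lists did not. In the Hedgehog pathway 2 of 14 genes had one of the 696 regions at an end, against 2.22% of all genes: the receptor Ptch1 (RBBP4 5.24-fold, MBD3 5.37-fold) and the transducer Smo (4.69-fold and 4.84-fold). Both summits lay within the gene, 707 bp past the start of Ptch1 and 725 bp past that of Smo. No 6-list region lay at an end of the 14 genes, which allows a share of up to 21.4% (3 counts), against 2.81% of all genes. Any merged region lay at 13 of the 14 (92.9%), against 54.1% of all genes.

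In Polycomb repressive complex 1, which binds and ubiquitinates histones, 4 of 21 genes had such a region: the chromodomain genes Cbx2 and Cbx8, the polyhomeotic gene Phc1 and Rybp. The CHD4-labelled peak was 14.1-fold at Cbx2, 11.04-fold at Phc1, 4.87-fold at Cbx8 and 4.66-fold at Rybp, while RBBP4 ranged from 4.78-fold at Phc1 to 6.02-fold at Cbx8. Other 5-list regions lay at 4 of these 21 genes, against 836 of all 20953 genes. Regions of all 6 lists lay at 0 of the 21, which allows a share of up to 14.3% (3 counts), against 2.81% of all genes. Any merged region lay at 19 of the 21 (90.5%), against 54.1% of all genes.

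Among kinesins and their light chains 5 of 31 genes had one of the 696 regions (Kif5b, Kif13a, Kif16b, Kif26b and Klc2), and among Sox factors 2 of 19 (Sox5 and Sox13), against 2.22% of all genes. A 6-list region lay at 4 of the kinesin genes and 2 of the Sox genes, against 2.81% of all genes. Any merged region lay at 28 of the kinesin genes (90.3%) and 14 of the Sox genes (73.7%), against 54.1% of all genes. Sox5 thus held a region at its start and another, with a KO-higher FTneg overlap, within the gene.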
